A study of Danio rerio with 58 samples.

Results

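The Sox and Fox genes of zebrafish were followed through embryonic development with and without chronic gamma irradiation. Members were all genes whose symbol is sox followed by a number, or fox followed by a letter from a to s and a number, which gave 91 of the 32057 genes counted (29 Sox and 62 Fox). The Sox list held 28 coding genes and sox2ot, an RNA gene that overlaps sox2. Pairs of genes shared a symbol in 9 cases (18 members) and are told apart here by their Ensembl identifier. Whether each pair are paralogues was not resolved.

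Poly(A) RNA was sequenced from pools of whole AB strain embryos or larvae at 24, 48 and 96 h post fertilisation (hpf). Embryos were irradiated continuously from early development with gamma rays at 0.5, 5 or 50 mGy/h and compared with unexposed controls of the same stage. The labels give 3 irradiation batches (I10, I17 and I32), each with its own controls, and exposed groups were compared within their batch. Exposure to 0.5 mGy/h was done in batch I32 at 24 hpf (3 exposed and 5 control pools) and in batch I10 at 24 hpf (3 and 2), 48 hpf (3 and 4) and 96 hpf (3 and 3). Exposure to 5 and 50 mGy/h was done in batch I17, where both dose rates share 3 control pools at each stage. The exposed I17 groups held 3 pools each, except 5 mGy/h at 48 hpf and 50 mGy/h at 96 hpf, which held 2. The step from 0.5 to 5 mGy/h and the change of batch cannot be told apart.

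Sox proteins bind DNA through an HMG box and Fox proteins through a winged helix, the forkhead domain. In vertebrate embryos the SoxB1 proteins keep neural cells in the progenitor state, the SoxC proteins act in newly formed neurons, and SoxE proteins act in neural crest and cartilage. Among Fox proteins, FoxA acts in endoderm, FoxD3 in neural crest, FoxI in epidermal ionocytes and the ear, FoxJ1 in motile cilia, FoxM1 in mitosis and FoxO downstream of insulin signalling. Levels of these genes therefore report on the cell types and progenitor states of an embryo. In whole embryos, fewer cells of a type and less RNA per cell cannot be told apart.

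Counts on genes ranged from 28278920 to 49971607 over the 51 libraries analysed. Library sizes scaled by TMM ran from 20412810 to 58718304. On these, 3 counts, the floor used here, corresponded to 0.0511 to 0.147 CPM, counts relative to scaled library size. All CPM values carry TMM scaling and are not divided by gene length, so they compare samples for 1 gene and not genes with each other. Of the 26 marker genes matched for 8 cell types, 24 had counts in every library and all 26 in at least 1. Fold changes are on the log2 scale with standard error (SE), and a gene was called changed at an adjusted p below 0.01 (edgeR quasi-likelihood test, Benjamini-Hochberg over all genes tested) and a fold change of at least 1.5. The study pooled eggs from several clutches before placing them in dishes. It calls dishes within a condition technical replicates and repeated irradiations biological ones, while its supplement calls the RNA pools biological replicates. Each exposure comparison here lies within 1 irradiation batch. Its p-values therefore measure the spread between pools of that batch and not between irradiations.

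Enough counts for testing were found for 67 members in all 10 exposure comparisons and for 11 more in some of them. The other 13 had at most 21 counts in a library (at most 0.507 CPM), among them sox4a and foxd5 with no count in any library.

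The normal course of the family was read first, in the controls of batch I17. From 24 to 48 hpf 40 of 77 members tested changed, 30 of them upwards and 10 downwards. Over all genes tested 32.5% changed (19.3% higher and 13.3% lower). From 48 to 96 hpf 34 of 77 members changed, 9 upwards and 25 downwards, against 43.3% of all genes (23.2% higher and 20.1% lower). Batch I10 controls gave 39 of 78 members from 24 to 48 hpf (background 31.9%) and 27 of 78 from 48 to 96 hpf (background 44.4%). For the earlier step 32 members were called in both batches and for the later step 23, and all of these had the same direction in both. The share of all genes called in both batches is not given here.

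**Figure D1:**
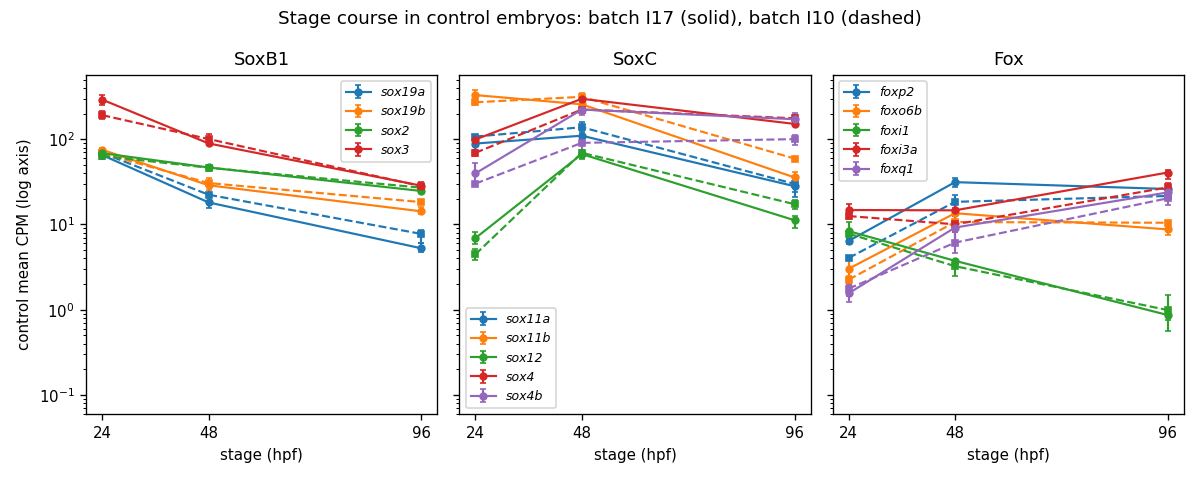
Mean CPM in control pools (y axes, log scale) at 24, 48 and 96 hpf (x axes) for SoxB1, SoxC and Fox members, with batch I17 as solid and batch I10 as dashed lines. Bars run from the lowest to the highest pool, and since CPM is not per length the curves of different genes cannot be compared in level. For sox12 the I17 controls stood at 6.92 CPM at 24 hpf, 67.0 CPM at 48 hpf and 11.2 CPM at 96 hpf.

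The SoxB1 genes sox19a, sox3 and sox19b declined along the course. Sox19a, a fish member of the neural progenitor group SoxB1, measured 59.3, 76.4 and 60.1 CPM in the I17 controls at 24 hpf and 16.9, 21.8 and 15.6 CPM at 48 hpf. The stages did not overlap, and the fitted fall was -1.87 ± 0.15 (SE). Sox3, which acts in neural progenitors and the otic and epibranchial placodes, fell by 1.73 on the log2 scale (SE 0.13) and sox19b, whose maternal product acts in early genome activation, by 1.41 (SE 0.12). All 3 fell again to 96 hpf, by 1.76, 1.62 and 0.98 on the log2 scale. Of the 5 SoxB1 genes tested none rose in either step. Foxi1, a regulator of the otic placode and of ionocyte precursors, followed the same course, with falls of 1.18 (SE 0.19) and then 2.09 (SE 0.23) on the log2 scale.

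Of the 5 SoxC genes tested 3 rose from 24 to 48 hpf, namely sox12, sox4 (1.56 ± 0.12) and sox4b (2.47 ± 0.20). Sox11a (0.28) and sox11b (-0.39) were not called in that step. Sox12 had the largest rise among the well expressed members (3.24 ± 0.16), from 8.23, 5.96 and 6.56 CPM to 58.5, 75.2 and 67.3 CPM. Sox14 (ENSDARG00000070929), a SoxB2 gene that marks interneurons in chick and mouse, rose by 2.61 ± 0.12. Foxq1 rose by 2.55 ± 0.28. The FoxO genes rose in 5 of 7 cases and the FoxF genes, which act in the mesoderm of the gut wall and in head mesenchyme, in 3 of 3. Foxq2, which sets blue cone identity in the zebrafish retina, had no count in any of the 22 libraries at 24 hpf and 1.27, 2.28 and 1.85 CPM in the I17 controls at 48 hpf. Set against the floor of 3 counts per library, its level at 48 hpf was at least 21.5-fold higher in batch I17 and at least 9.38-fold higher in batch I10.

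From 48 to 96 hpf 4 of the 5 SoxC genes tested fell in batch I17. Sox11b fell by 2.82 on the log2 scale (SE 0.16), sox12 by 2.55 (SE 0.15), sox11a by 1.94 (SE 0.15) and sox4 by 0.95 (SE 0.12). Sox11a and sox11b are expressed in newly formed neurons throughout the nervous system. The largest rises of that step were those of foxi3a, the ionocyte regulator of the skin (1.51 ± 0.16), foxq1 (1.41 ± 0.24), foxk1 (1.14 ± 0.12) and foxo1 (ENSDARG00000099555), a target of insulin signalling (0.97 ± 0.17).

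Likeness of course was measured over the 17 group means, and for 6 of the 23 members chosen by the naming rule the closest member belonged to the same subgroup. The closest to sox19a were sox19b and sox3 (Pearson r = 0.99 each), the closest to sox11b was sox11a (0.92) and the closest to sox12 was sox4 (0.91). Closest members from another subgroup included sox3 for foxi1 (0.98), foxo6b for sox4 (0.97), foxm1 for sox2 (0.92) and foxp2 for sox14 (0.99). These correlations are descriptions over groups that share batches and stages.

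At 24 hpf 10 of 71 members tested were called at 5 mGy/h, 4 higher and 6 lower than the I17 controls. Of all genes 9.89% were called (6.68% higher and 3.21% lower). Sox2, sox11a, sox11b, sox12 and foxn4 were among the genes that were lower, and those that were higher were sox4b, foxd3, foxh1 and foxi3a. At 50 mGy/h 5 of 71 members changed, 2 upwards and 3 downwards (background 5.88%, with 4.17% higher and 1.71% lower). All 5 were among the 10, namely sox11b, sox12, foxn4, foxd3 and foxh1, and the dose rates share their 3 controls. The medians over the members were 0.07 at 5 mGy/h and 0.00 at 50 mGy/h, beside -0.06 and -0.02 over all genes. Leaving out 1 pool in turn moved the count at 5 mGy/h between 3 (without 5 mGy/h replicate 4 or control replicate 1) and 12 (without control replicate 3), with 4 without 5 mGy/h replicate 2 or control replicate 4 and 6 without 5 mGy/h replicate 1. The count at 50 mGy/h moved between 2 (without control replicate 1) and 9 (without control replicate 3), with 3 without control replicate 4, while sox11b and sox12 kept the call throughout.

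**Figure D2:**
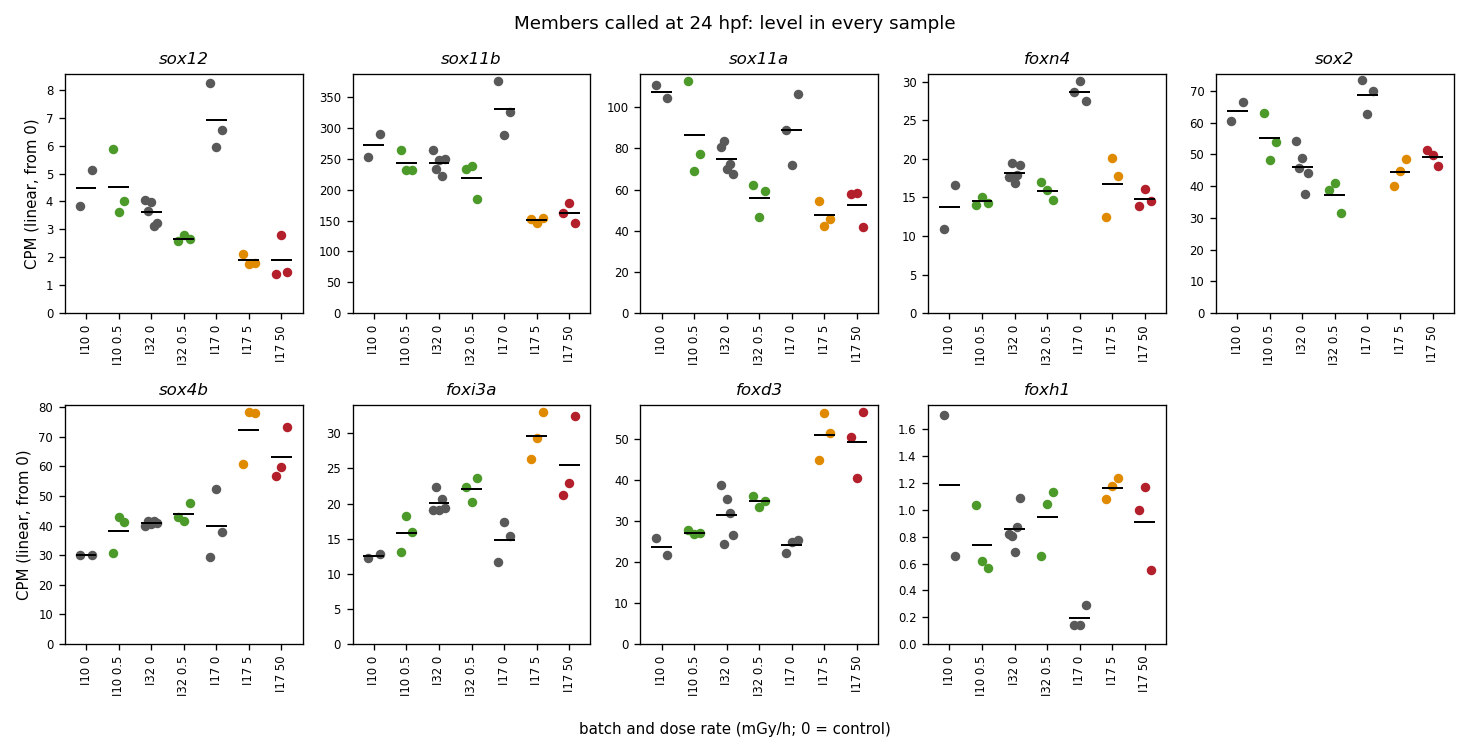
CPM (y axes, 1 panel per gene, each from 0) of 9 of the 10 members called at 24 hpf, for controls and exposed pools of batches I32, I10 and I17 (x axis). Points are pools and lines are group means. For sox12 all 6 pools at 5 and 50 mGy/h (1.39 to 2.82 CPM) lay below the 10 control libraries of the 3 batches, while for foxn4 the controls of the other batches reached the exposed values of batch I17.

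The SoxC genes held the largest falls. Sox12 measured 8.23, 5.96 and 6.56 CPM in the controls, 2.14, 1.76 and 1.81 CPM at 5 mGy/h and 1.39, 2.82 and 1.49 CPM at 50 mGy/h. All exposed pools lay below all controls of the batch. The fold changes were -1.84 ± 0.26 (edgeR adjusted p = 0.000652) and -1.83 ± 0.26 (adjusted p = 0.000658). The controls of batch I32 had 3.12 to 4.07 CPM and those of batch I10 3.82 and 5.11 CPM, which is below the I17 controls and above every exposed I17 pool. In the comparison of controls the I32 value was lower than the I17 value by -0.96 ± 0.15 (edgeR adjusted p = 0.000143).

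Sox11b measured 376, 288 and 326 CPM in the controls, 153, 146 and 154 CPM at 5 mGy/h and 162, 178 and 146 CPM at 50 mGy/h. The groups were far apart, with fold changes of -1.12 ± 0.15 (edgeR adjusted p = 0.000549) and -1.0 ± 0.15 (adjusted p = 0.00104). Its paralogue sox11a had 88.9, 72.0 and 106 CPM in the controls and 54.5, 42.3 and 45.8 CPM at 5 mGy/h, a fall of -0.90 ± 0.18 (adjusted p = 0.00381). At 50 mGy/h sox11a had 57.9, 58.2 and 41.9 CPM, also below every control, but the change was not called (-0.73 ± 0.18, adjusted p = 0.0127).

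Sox4b, another SoxC gene, went the other way. It measured 29.3, 52.3 and 37.7 CPM in the controls and 60.8, 78.4 and 77.9 CPM at 5 mGy/h, with no overlap (0.86 ± 0.20, edgeR adjusted p = 0.00817), and was not called at 50 mGy/h (0.68, adjusted p = 0.0298). Across the 5 SoxC genes tested, 3 fell, 1 rose and 1 was not called at 5 mGy/h, and the median change was -0.90, beside -0.73 at the higher dose rate.

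Of the SoxB1 genes only sox2, the pluripotency and neural progenitor factor, was called at 24 hpf. It measured 73.4, 62.8 and 69.9 CPM in the controls and 40.0, 44.8 and 48.4 CPM at 5 mGy/h, without overlap (-0.62 ± 0.14, edgeR adjusted p = 0.00615). At 50 mGy/h it was -0.46 (adjusted p = 0.0308). The I32 controls ran from 37.5 to 54.1 CPM, which spans the exposed values, and were lower than the I17 controls by -0.59 ± 0.11 (adjusted p = 0.00101). The other SoxB1 genes had no called change, and sox19a was level at 59.3 to 76.4 CPM in the controls against 62.3 to 71.4 CPM over both exposed groups.

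Foxd3, a regulator of neural crest formation, was the clearest rise. It measured 22.3, 24.9 and 25.4 CPM in the controls, 45.0, 56.3 and 51.5 CPM at 5 mGy/h and 50.7, 40.6 and 56.7 CPM at 50 mGy/h. Every exposed pool exceeded every control of the 3 batches, whose highest value was 38.9 CPM. The fold changes were 1.08 ± 0.16 (edgeR adjusted p = 0.000752) and 1.05 ± 0.16 (adjusted p = 0.000955).

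Foxi3a, the ionocyte regulator, measured 11.6, 17.4 and 15.4 CPM in the controls and 26.4, 29.4 and 33.0 CPM at 5 mGy/h (1.01 ± 0.19, edgeR adjusted p = 0.00323). Its values at 50 mGy/h were 21.3, 22.9 and 32.4 CPM, again above the controls, but were not called (0.81, adjusted p = 0.0118). The related foxi1 was higher without being called (0.75, adjusted p = 0.016 and 0.68, adjusted p = 0.0305).

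Foxh1, the Smad partner in Nodal signalling during gastrulation, was close to the floor. It had 6, 4 and 12 counts in the I17 controls, 33, 24 and 26 counts at 5 mGy/h and 26, 37 and 16 counts at 50 mGy/h, and was higher in each exposed group without overlap. The fitted changes were 2.55 ± 0.43 (edgeR adjusted p = 0.00169) and 2.22 ± 0.43 (adjusted p = 0.00426). The I17 controls (0.144, 0.144 and 0.289 CPM) were lower than those of the other batches, where the I32 controls had 0.686 to 1.09 CPM and the I10 controls 1.71 and 0.660 CPM, values that cover most of the exposed I17 pools.

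Foxn4, which acts in retinal progenitors and in V2 interneurons of the spinal cord, was lower. It measured 28.6, 30.1 and 27.5 CPM in the controls, 12.5, 20.1 and 17.7 CPM at 5 mGy/h and 13.8, 16.1 and 14.6 CPM at 50 mGy/h. The exposed pools lay below the I17 controls (-0.77 ± 0.17, edgeR adjusted p = 0.0064 and -0.93 ± 0.17, adjusted p = 0.00329) but, apart from the pool at 20.1 CPM, within the range of the other controls, which was 11 to 19.5 CPM.

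Set against the controls of all batches, 6 of the 10 members called at 5 mGy/h lay wholly outside the 10 control libraries (sox11a, sox11b, sox12, sox4b, foxd3 and foxi3a). At 50 mGy/h it was 3 of 5 (sox11b, sox12 and foxd3). The share of all genes outside the controls of all batches was not counted, and the I17 controls among them also set the calls. Uncalled members lay outside them too. At 5 mGy/h these were sox10, foxa2, foxb1 (ENSDARG00000089042), foxd1, foxd2, foxf2a, foxo1 (ENSDARG00000099555), foxo4 and foxo6b. At 50 mGy/h they were sox11a, sox4b, foxf2a and foxi1. Non-overlap with the I17 controls alone was common, in 49.7% of all genes and 50.7% of members at 5 mGy/h and in 36.6% and 35.2% at 50 mGy/h. In the 24 hpf controls 6 of 71 members differed between I32 and I17 (background 8.37%), among them sox2, sox12 and foxn4, which were lower in I32, and foxh1, which was higher.

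The I17 controls at 24 hpf stood apart in developmental position. On a scale set by the I10 controls, where 0 is their mean at 24 hpf and 100 their mean at 48 hpf, the I17 controls were at 24.3, 23.1 and 24.4 over the genes called in that step. The pools at 5 mGy/h were at 3.80, 7.25 and 6.60, those at 50 mGy/h at -2.65, 7.26 and 6.47, and the I32 controls between 4.57 and 8.2. Both exposed groups lay below their controls without overlap, by -18.1 and -20.3 (two-sided exact permutation p = 0.1 each, the smallest value 3 against 3 allows). With the Sox and Fox genes left out the differences were -18.1 and -20.3. The part of this position in the changes at 24 hpf was not tested.

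Neuron and epidermis markers moved with the same groups, and the sums of the other marker lists are not given here. Summed over 3 neuron markers, CPM ran from 143 to 182 in the I17 controls at 24 hpf, from 78.8 to 93.5 at 5 mGy/h and from 72.5 to 103 at 50 mGy/h. Epidermal markers (4 genes) ran from 5685 to 8971 CPM in the controls, from 17228 to 18673 CPM at 5 mGy/h and from 14252 to 19064 CPM at 50 mGy/h. No gene of either list was at 0, and the part of these shifts in the Sox and Fox changes was not tested.

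Genes of 12 related lists for tissues and cell types, which hold none of the members, were read at 24 hpf. Of 164 genes tested, 30 were higher and 16 lower at 5 mGy/h, and 26 higher and 9 lower at 50 mGy/h. Over all genes 6.68% were higher and 3.21% lower at 5 mGy/h, and 4.17% higher and 1.71% lower at 50 mGy/h. The list of paraxial mesoderm and somite genes had 12 of 15 higher and 1 lower at 5 mGy/h (median 1.44, beside -0.06 over all genes), with tbx6 at 3.50 and her1, a gene of the segmentation clock, at 2.93. It had 11 higher and 1 lower at 50 mGy/h. Endothelial genes were higher in 5 of 18 cases at both dose rates and notochord and floor plate genes in 4 of 14. Postmitotic neuron genes were lower in 5 of 16 cases at 5 mGy/h and 3 of 16 at 50 mGy/h, including elavl3 (-0.94 and -1.09). Neural progenitor genes were lower in 4 of 11 and 3 of 11 cases, with pax6b at -0.95 and -0.72.

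The remaining lists are given next, where 9.89% of all genes were called at 5 mGy/h and 5.88% at 50 mGy/h. Among 14 neural crest genes tested 1 was higher and 2 lower at 5 mGy/h, and 1 was higher and 1 lower at 50 mGy/h. Among 9 ionocyte genes 1 rose and 2 fell at both dose rates. Among 15 forebrain genes none was called. Endoderm and gut genes rose in 2 of 12 and 1 of 12 cases, motile cilia genes in 2 of 18 and 1 of 18, and no gene of these lists fell. Cartilage and bone genes rose in 3 of 17 and fell in 2 of 17 under 5 mGy/h, with 3 and 0 under 50 mGy/h, and oligodendrocyte and Schwann cell genes rose in 2 of 8 and fell in 1 of 8, with 1 and 0 under 50 mGy/h.

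At 0.5 mGy/h no member was called at 24 hpf, in 70 tested in batch I32 (background 0.0694%) or in 72 tested in batch I10 (background 0.0104%). In batch I32 DESeq2 called 1 and 8 had an unadjusted edgeR p below 0.05 (1 higher and 7 lower). These 8 were 11.4% of members, beside 13.4% of all genes. In batch I10 DESeq2 called 0 and 7 had an unadjusted p below 0.05 (6 higher and 1 lower). These 7 were 9.72% of members, beside 10.3% of all genes. The 2 sets were mostly of different genes, so these tallies do not compare directions gene by gene. Foxo4, which was in both sets, was lower in both batches (-0.39 in I32 and -0.44 in I10). The difference between the batches was not tested. In batch I32 2 members had an adjusted p below 0.05, both lower. They were foxp4 (-0.65, edgeR adjusted p = 0.0162) and foxo1 (ENSDARG00000099555, -0.76, adjusted p = 0.0423). Sox12, the gene with the largest fall at the higher dose rates, had 2.57, 2.79 and 2.65 CPM at 0.5 mGy/h in batch I32 against 3.12 to 4.07 CPM in its controls (-0.43, edgeR adjusted p = 0.217), so these groups did not overlap, like those of 9.31% of all genes, and the difference missed the threshold.

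At 48 hpf 7 of 77 members were called at 50 mGy/h, all lower, where 1.53% of all genes were called (0.757% higher and 0.768% lower). Among them were sox4, sox12, sox14, foxo6b, foxp2 and foxq2. The direction was shared by most of the family, since 59 of 77 members tested were lower than the controls with a median of -0.30, beside 0.02 over all genes. At 5 mGy/h, with 2 pools, edgeR called 0 of 77 (background 0.157%) and DESeq2 called 8. Unadjusted edgeR p was below 0.05 for 28 (6 higher and 22 lower), 36.4% of members beside 16.4% of all genes. There 54 of 77 were lower, with a median of -0.28 beside -0.02 over all genes. Both dose rates share the 3 controls. The 7 calls depended on single pools, since without 50 mGy/h replicate 5 or any 1 control no member was called, without replicate 6 it was 1 and without replicate 8 it was 18. With the libraries that the study removed put back it was 0.

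**Figure D3:**
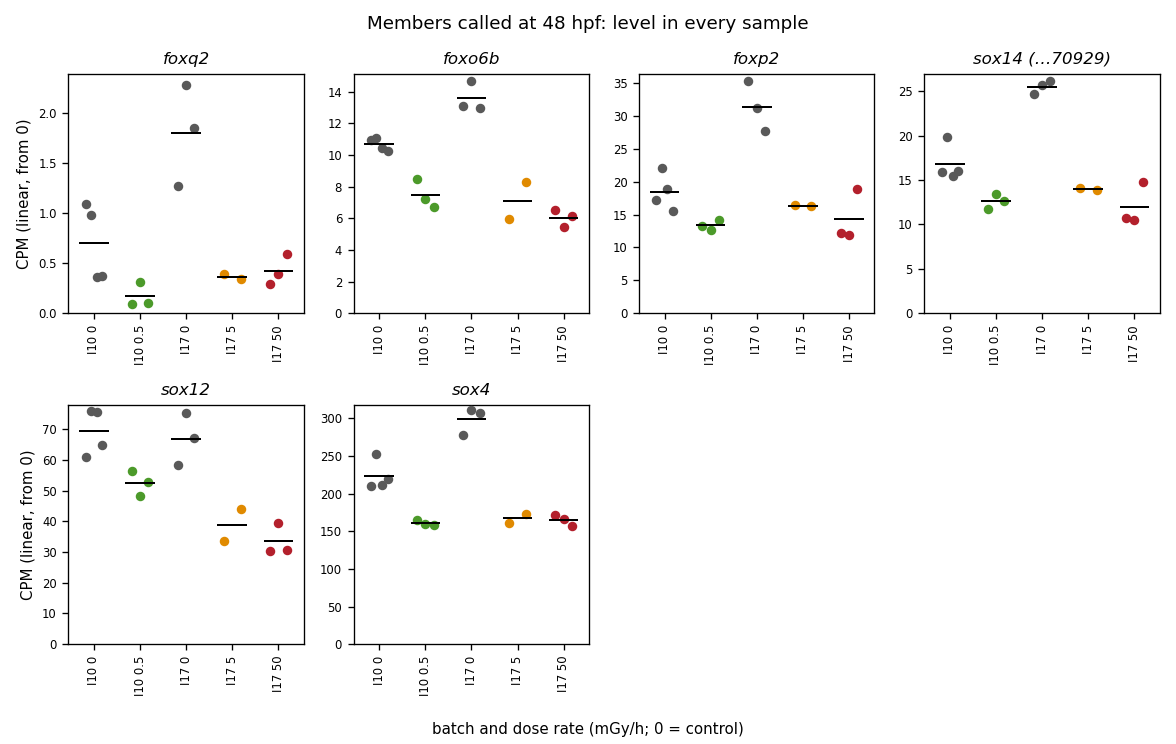
CPM (y axes, 1 panel per gene, each from 0) of 6 of the 7 members called at 48 hpf, for controls and exposed pools of batches I10 and I17 (x axis). Points are pools and lines are group means. For sox4 the 3 pools at 50 mGy/h (157 to 171 CPM) lay below the controls of both batches (210 to 311 CPM).

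Sox4, a SoxC gene, measured 278, 311 and 307 CPM in the controls, 161 and 174 CPM at 5 mGy/h and 171, 166 and 157 CPM at 50 mGy/h. The exposed pools lay below the controls of both batches. The change was -0.83 ± 0.15 (edgeR adjusted p = 0.00924) at 50 mGy/h and -0.83 (adjusted p = 0.037) at 5 mGy/h. Sox12 measured 58.5, 75.2 and 67.3 CPM in the controls, 33.7 and 43.9 CPM at 5 mGy/h and 30.3, 39.5 and 30.8 CPM at 50 mGy/h (-0.97 ± 0.17, adjusted p = 0.00899), so its fall at 24 hpf was present at this stage too.

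Sox14 (ENSDARG00000070929) measured 24.7, 25.7 and 26.2 CPM in the controls, 14.1 and 13.9 CPM at 5 mGy/h and 10.7, 10.5 and 14.7 CPM at 50 mGy/h. Its fall of -1.06 ± 0.16 (edgeR adjusted p = 0.00468) left the exposed pools below the lowest I10 control, at 15.5 CPM. Foxo6b, a FoxO gene expressed in brain, went from 13.1, 14.7 and 13.0 CPM to 6.54, 5.48 and 6.12 CPM (-1.13 ± 0.17, adjusted p = 0.00425), with the I10 controls at 10.3 to 11.1 CPM. These 2 genes, with sox4 and sox12, were the 4 of the 7 whose pools at 50 mGy/h lay outside the 7 control libraries of both batches. The share of all genes outside the controls of both batches was not counted.

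The other 3 overlapped with the I10 controls, foxp2 and foxq2 among them. Foxp2, a gene of neurons that is linked to speech in humans, had 35.3, 31.2 and 27.7 CPM in the controls and 12.2, 11.9 and 18.9 CPM at 50 mGy/h (-1.10 ± 0.19, edgeR adjusted p = 0.00876). The I10 controls had 15.6 to 22 CPM, and replicate 8 at 50 mGy/h was the highest of the 3 exposed pools.

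Foxq2, the cone gene that appears between 24 and 48 hpf, had 1.27, 2.28 and 1.85 CPM in the controls and 0.290, 0.397 and 0.587 CPM (12, 16 and 21 counts) at 50 mGy/h. No exposed pool reached a control of the batch, and the fall was -2.06 ± 0.36 (edgeR adjusted p = 0.00889). At 5 mGy/h it had 0.387 and 0.345 CPM (-2.30, adjusted p = 0.0282). In batch I10 the controls spread from 0.361 to 1.09 CPM.

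Non-overlap with the own controls at 48 hpf was found for 48.1% of members and 27.9% of all genes at 50 mGy/h, and for 57.1% and 40.3% at 5 mGy/h. In the controls of this stage 12 of 77 members differed between I10 and I17 (background 13.7%), 11 of them lower in I10 (background 4.65%). Those lower in I10 included foxp2 (-0.73 ± 0.13), which was also lower in the exposed pools of batch I17.

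By subgroup, SoxC and FoxO were lowest among subgroups with 5 or more genes tested at 48 hpf. The SoxC median was -0.78 at 5 mGy/h and -0.80 at 50 mGy/h (4 of 5 lower at each), and the FoxO median -0.60 and -0.72 (6 of 7 and 7 of 7 lower). The SoxE genes, of neural crest and cartilage, were lower in 4 of 5 cases at 50 mGy/h with a median of -0.50, and the FoxF genes in 3 of 3 with -0.72. None of the SoxE or FoxF genes was called.

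Of the 5 SoxB1 genes tested, sox3, sox19a and sox19b had positive differences at both higher dose rates, none of them called. Sox3 measured 90.3, 88.5 and 89.4 CPM in the controls, 161 and 128 CPM at 5 mGy/h and 150, 119 and 125 CPM at 50 mGy/h. The exposed pools were above the controls without overlap, and the differences were 0.70 (edgeR adjusted p = 0.0621) and 0.58 (adjusted p = 0.0381). Sox19a was at 0.81 and 0.72 and sox19b at 0.60 and 0.54, while sox2 did not separate, with 43.2 to 49.8 CPM in the controls and 38.6 to 51.9 CPM over both exposed groups. Sox1 (ENSDARG00000008131) was at -0.04 and -0.21. The SoxB1 medians were 0.60 and 0.54.

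**Figure D4:**
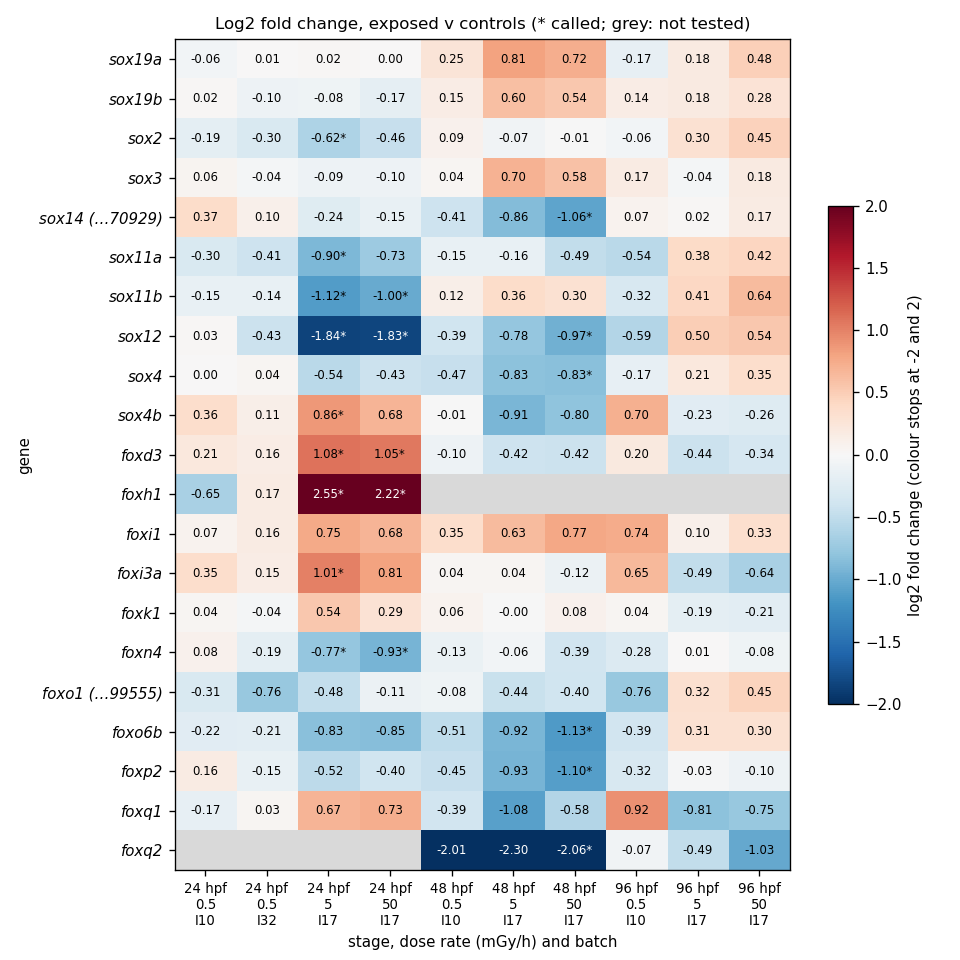
Log2 fold change (colour scale) of the 21 members described by name (rows) in the 10 comparisons of exposed with control pools (columns), printed in each cell, with an asterisk where the member was called. The called cells are in 3 columns, with 9 of the drawn members for 5 mGy/h at 24 hpf, 5 for 50 mGy/h at 24 hpf and 6 for 50 mGy/h at 48 hpf. Grey cells were not tested, and the colour scale stops at -2 and 2.

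At 48 hpf the differences ran against the normal course. The course was taken from the I10 controls, which share no pool with the exposure comparison of batch I17. Of the 27 members that rose from 24 to 48 hpf in I10, all 27 were lower at 50 mGy/h (median -0.76) and 26 of 27 at 5 mGy/h (median -0.74). Over all genes that rose, 85.4% and 86.8% were lower (medians -0.50 and -0.46). Of the 11 members that fell in that step 10 were higher at each dose rate. Across the 77 members Pearson r between the course and the exposure difference was -0.81 at 50 mGy/h and -0.83 at 5 mGy/h, against -0.63 and -0.60 across all genes. Genes are not independent replicates, and the values within each axis come from the same pools.

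At 24 hpf the members that rise later were split. Of 22 that rose from 24 to 48 hpf in I10, 10 were lower at 5 mGy/h and 13 at 50 mGy/h, where 74.0% and 74.7% of all rising genes were lower. Across 71 members Pearson r was -0.55 and -0.57, beside -0.31 and -0.39 across all genes. By rank (Spearman) it was -0.32 and -0.33, beside -0.26 and -0.36 across all genes. At 0.5 mGy/h and 48 hpf, in batch I10, the course was taken from the I17 controls. There 27 of 30 rising members were lower, against 79.4% of all rising genes. Pearson r was -0.73 across 76 members and -0.44 across all genes, and by rank -0.60 and -0.38. At 0.5 mGy/h and 24 hpf the batches differed. In batch I32 16 of 24 rising members were lower, against 58.7% of all rising genes. There 3 of 10 falling members were higher, against 49.0% of all falling genes. The I32 r was -0.22 across 69 members and -0.01 across all genes. In batch I10 9 of 25 rising members were lower, against 40.0% of all rising genes. The I10 r was 0.18 across 71 members and 0.15 across all genes. At 96 hpf, set against the step from 48 to 96 hpf in the I10 controls, 9 of 11 rising members were lower at 5 mGy/h and 8 of 11 at 50 mGy/h (63.7% and 65.3% of all rising genes). There r was -0.56 and -0.59, beside -0.31 and -0.34 across all genes. By rank it was -0.44 and -0.51, beside -0.31 and -0.32.

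**Figure D5:**
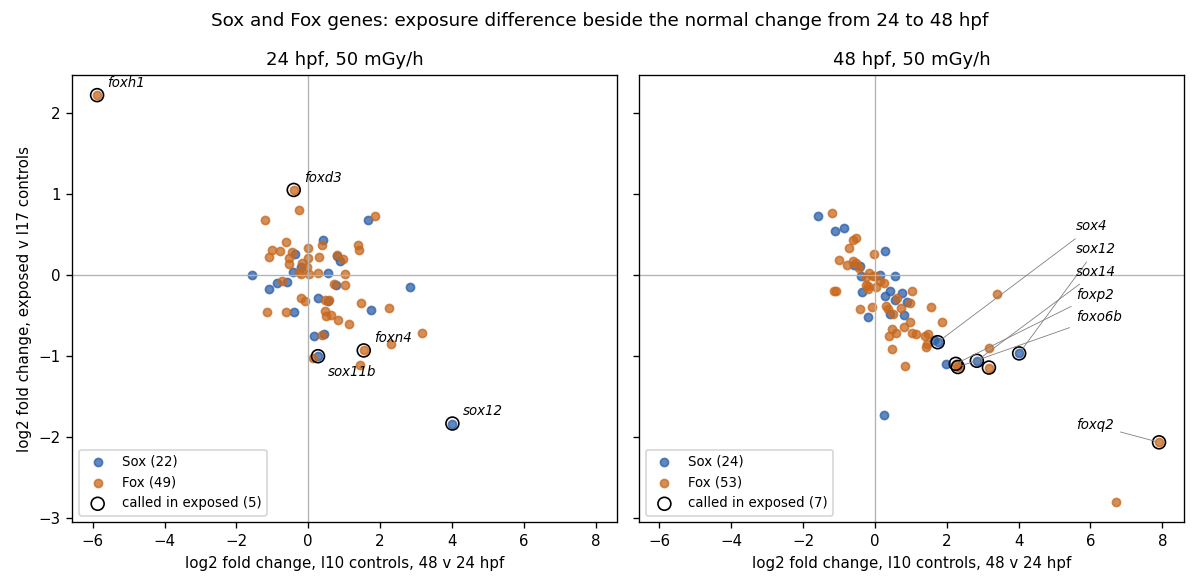
Log2 fold change between pools at 50 mGy/h and controls of batch I17 (y axes, 24 hpf left and 48 hpf right) against log2 fold change from 24 to 48 hpf in the I10 controls (x axes), 1 point per member, with called members ringed and most of them named. At 48 hpf and 50 mGy/h all 27 members that rose in the controls lie below 0. The fitted values of foxh1 and foxq2 rest on groups at or near 0 counts.

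At 0.5 mGy/h and 48 hpf edgeR called 0 of 76 members (background 0.0505%) and DESeq2 called 0. Unadjusted edgeR p was below 0.05 for 19 (4 higher and 15 lower), 25% of members beside 20.1% of all genes. The smallest adjusted p was that of sox4 (0.0273), which measured 165, 160 and 158 CPM against 210, 253, 211 and 219 CPM in the controls, a difference of -0.47 without overlap (15.8% of all genes did not overlap). Foxo6b differed by -0.51 (adjusted p = 0.0358), from 11, 11.1, 10.4 and 10.3 CPM in the controls to 8.49, 7.24 and 6.73 CPM. Foxb2 had 2 counts in each exposed pool against 11, 19, 12 and 14 counts in the controls (adjusted p = 0.0293), which is under the floor of 3 counts, so no fold is given. These 3 were the members with an adjusted p below 0.05, all of them lower. Sox4 and foxo6b were also called in batch I17 at 50 mGy/h, and foxb2 was not (adjusted p = 0.0129).

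Postmitotic neuron genes were lower at 48 hpf at 50 mGy/h in 16 of 16 cases, 3 of them called (median -0.69, beside 0.02 over all genes). The summed neuron markers ran from 310 to 422 CPM in the I17 controls, from 236 to 248 CPM at 5 mGy/h and from 143 to 189 CPM at 50 mGy/h, with no marker at 0, and their part in the changes of sox4, foxp2 and the other members was not tested. Of the 166 genes tested over the 12 lists, 3 were higher and 6 lower (0.757% and 0.768% of all genes). Neural progenitor, endoderm, motile cilia, endothelial, cartilage, ionocyte and paraxial mesoderm genes had no call, neural crest had 1 in each direction, notochord and floor plate 2 higher, and the forebrain gene emx2 (-0.77) and the oligodendrocyte gene olig1 (-1.77) were lower.

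Whether the effect of a dose rate differed between 24 and 48 hpf was tested in batch I17 as an interaction. At 5 mGy/h 2 of 78 members passed an adjusted p of 0.01 (background 0.393%). Sox11b was lower at 24 hpf but measured 330 and 327 CPM at 48 hpf against 224, 265 and 282 CPM in the controls (interaction 1.46, edgeR adjusted p = 0.00766). Foxd3 was higher at 24 hpf but measured 20.8 and 18.3 CPM at 48 hpf against 29.9, 22.6 and 26.3 CPM (interaction -1.52, adjusted p = 0.0046). Foxd3 alone passed at 50 mGy/h (-1.53, adjusted p = 0.00271, background 0.521%). With 1 pool left out in turn both calls at 5 mGy/h remained only without 24 hpf control replicate 3. The call of foxd3 at 50 mGy/h was lost without 24 hpf control replicate 1, 48 hpf control replicate 5 or 50 mGy/h replicate 5 of 48 hpf, and 9 members passed without replicate 8 of that group.

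At 96 hpf edgeR called no member at any dose rate. At 0.5 mGy/h 0 of 74 were called (background 0%), DESeq2 called 0, and 19 had an unadjusted edgeR p below 0.05. At 5 mGy/h 0 of 77 were called (background 0.275%), DESeq2 called 2, and 16 had an unadjusted p below 0.05. At 50 mGy/h, with 2 pools, 0 of 77 were called (background 0.162%), DESeq2 called 5, and 23 had an unadjusted p below 0.05 (17 higher and 6 lower). The shares below 0.05 were 25.7%, 20.8% and 29.9% of members at 0.5, 5 and 50 mGy/h, beside 20.8%, 21.3% and 29.1% of all genes.

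Among the uncalled members 5 were higher and 3 lower at 50 mGy/h with an adjusted p below 0.05. They included genes that were called at an earlier stage, namely sox2 (0.45, edgeR adjusted p = 0.0236), sox11b, foxi3a (-0.64, adjusted p = 0.0406) and foxq2 (-1.03, adjusted p = 0.0435). With the library that was left out put back, 0 members were called at this dose rate. Sox12 measured 12, 12.5 and 9.19 CPM in the I17 controls, 18.5, 14.8 and 13.8 CPM at 5 mGy/h and 18.3 and 13.9 CPM at 50 mGy/h. Its differences were positive and not called (0.50, edgeR adjusted p = 0.131 and 0.54, adjusted p = 0.0719). Sox11b was at 32.5, 41.0 and 33.4 CPM in the controls and 58.4 and 51.4 CPM at 50 mGy/h, above every control, as groups of 50.1% of all genes did not overlap, and not called (0.64, adjusted p = 0.0279). Foxq1 was lower, with 23.2, 20.3 and 28.0 CPM in the controls and 12.2 and 15.8 CPM at 50 mGy/h (-0.75, adjusted p = 0.0319), and 7 of 76 members differed between the I10 and I17 controls (background 18.5%).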

How the data were processed

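Reads per gene were deposited as raw counts, 1 table per library. The authors trimmed the reads with Trim Galore, aligned them with STAR to GRCz11 and counted genes of Ensembl 95, and per the file headers each table holds unstranded counts and counts for each strand. The reverse-strand column was used, since the libraries were stranded. Of 58 libraries 51 were analysed, and the 7 read as those that the study removed from its clustering were left out. The names in that clustering do not all match the labels, so the 96 hpf library left out at 50 mGy/h is uncertain. The 5 libraries of batch I10 at 24 hpf, which the study lists but does not show in its clustering, were kept as a batch of their own. Rows that name no gene stayed out of library sizes. Unassigned reads without a feature were 3.95% to 8.57% of each library and multimapping reads 14.9% to 25.5%, so paralogues with near-identical stretches can lose reads.

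Symbols were matched by Ensembl identifier, 28988 genes through the gene table and 1867 through a supplement of the study, and 3062 of the 32057 had no symbol. Genes sharing a symbol stayed separate. No sequence or coordinate was used.

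Genes were filtered with edgeR's filterByExpr (minimum count 10, minimum total 15), given TMM factors and compared by the quasi-likelihood test (edgeR 4.0.16, R 4.3.3) within each stage and batch, with both I17 dose rates in 1 fit. The authors used DESeq2, which was run here as an alternative (1.42.0). Others were no filter, an adjusted p of 0.05, the unstranded column, all libraries, separate fits, a replicate block and leaving out each pool. Steps were tested on simulated data. Members, related lists and tests were chosen with earlier results of these data known. Named were all members called in an exposure comparison and, in each I17 control step, the 4 largest rises and falls among called members averaging 1 log2 CPM or more. A few members that the rule selects are counted in the totals but not reported here by name. Genes of the related lists that are named were chosen after their values were seen. The likeness of courses is the correlation of log2(CPM + 0.5) group means.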

Additional observations from a re-analysis of the deposited data

Results flagged for a closer look

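In the control groups of 4 or 5 pools, 46 groups of a named member and its batch and stage were examined for a single pool far from the others, and 5 had one. Chance gives about 1 in 20 for independent groups, and these groups share pools. In the I10 controls at 48 hpf the highest pool was 35.0 CPM for sox19b (the others 28.8 to 29.6 CPM), 117 CPM for sox3 (the others 94.5 to 96.1 CPM), 19.8 CPM for sox14 (ENSDARG00000070929, the others 15.5 to 16.1 CPM) and 0.0637 CPM for foxh1, where the others had no count. The high pool was replicate 8 for sox19b and sox3, replicate 6 for sox14 and replicate 7 for foxh1. For foxh1, with the other pools without a count, any count in a single pool meets the rule. In the I32 controls at 24 hpf the lowest pool for sox3 was 233 CPM, replicate 5, and the others had 254 to 257 CPM.

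By the edgeR interaction test the exposure difference of sox11b at 5 mGy/h was not the same at 24 and 48 hpf in batch I17 (1.46). Nor was that of foxd3 at 5 mGy/h (-1.52) and 50 mGy/h (-1.53). These calls were lost under 12, 9 and 4 alternatives in that order, with the replicate block among them each time.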

How the results depend on the processing

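Members near the floor (foxh1, foxq2) rest on few counts. Of 55 values of named members, set against 678 alternatives, all kept their direction, 541 their side of the threshold and 137 lost the call. All 55 were chosen as called, and in the 55 alternatives at an adjusted p of 0.05 a call could not be lost. The total also mixes control steps with exposure. The calls at 48 hpf and 50 mGy/h each lost between 7 (sox12 and foxo6b) and 9 (sox4) alternatives. At 24 hpf sox12 and sox11b at both dose rates and foxd3 at 5 mGy/h kept the call under every alternative run, and foxd3 at 50 mGy/h lost it only without control replicate 1 (edgeR adjusted p = 0.0103). Counts of called members that moved included the following. At an adjusted p of 0.05 they were 2 (0.5 mGy/h, batch I32) and 13 (50 mGy/h) at 24 hpf. They were 1, 5 and 15 at 48 hpf for the 3 rising dose rates, 1 and 6 at 96 hpf for 5 and 50 mGy/h and 5 for the interaction at 50 mGy/h. With DESeq2 they were 1 (0.5 mGy/h, batch I32), 14 (5 mGy/h) and 8 (50 mGy/h) at 24 hpf. At 48 hpf DESeq2 gave 8 and 10 (5 and 50 mGy/h) and at 96 hpf 2 and 5 (5 and 50 mGy/h). For the interactions at 5 and 50 mGy/h it gave 4 and 5. With no filter they were 1 and 10 at 24 hpf, 2 at 48 hpf (5 mGy/h), 2 and 5 at 96 hpf and 4 for the interaction at 50 mGy/h. With a separate fit per dose rate they were 12 and 1 at 48 hpf (5 and 50 mGy/h) and 3 at 96 hpf (50 mGy/h). The unstranded column gave 1 for the interaction at 5 mGy/h. With all libraries, those the study removed included, no member was called at 48 hpf and 50 mGy/h (0 against 7), and 3 differed between the controls at 96 hpf. The cause of these shifts was not tested.

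With the replicate number as a block 6 members were called for 5 mGy/h at 24 hpf, 0 for 50 mGy/h at 48 hpf and 0 for both interactions. Same-numbered pools did not deviate together in every pair of any comparison with 3 pairs (from -0.193 to 0.211 at 24 hpf and 50 mGy/h), so the numbers were not taken as pairs. Leaving out 1 pool in turn gave 3 to 12 called members at 24 hpf and 5 mGy/h, with 3 without 5 mGy/h replicate 4 or control replicate 1, 4 without 5 mGy/h replicate 2 or control replicate 4 and 6 without 5 mGy/h replicate 1. It gave 2 to 9 at 24 hpf and 50 mGy/h, with 2 without control replicate 1, 3 without control replicate 4 and 9 without control replicate 3. At 48 hpf and 50 mGy/h it gave 0 to 18, with 0 without replicate 5 or any 1 control, 1 without replicate 6 and 18 without replicate 8. At 96 hpf it gave 0 to 2 at 0.5 and at 50 mGy/h. Under the same omissions the developmental position of the exposed pools at 24 hpf differed from the controls by -18.8 to -17.0 (5 mGy/h) and by -22.1 to -17.1 (50 mGy/h).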
